A study of Mus musculus with 14 samples.

Results

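The mRNA levels of 8 chemokine genes were followed in activated mouse CD4+ T cells: *Ccl3*, *Ccl4*, *Ccl5*, *Ccl9*, *Ccl1*, *Xcl1*, *Cxcl10*, and *Cxcl16*. They were chosen by name as chemokines made by T cells, and all 8 had a value in each of the 14 samples, among 31092 genes that did. RNA-Seq had been done in 2 experiments. In the first, 4 HDAC1cKO-HDAC2HET samples (HDAC1f/f HDAC2f/+ x CD4cre) and 4 WT samples were collected after 3 days of activation. In the second, 3 HDAC1cKO samples (HDAC1f/f x CD4cre) and 3 WT samples were collected after 3 days plus 12 h of restimulation with anti-CD3. All mice were C57BL/6 of both sexes, 6 to 12 weeks old, with littermate controls. Activation was of naive cells, by antibodies to CD3 and CD28 together with IL-2, and without polarizing cytokines. The labels give spleen as the tissue, while the study's methods describe a pool of spleen and lymph node cells. Per the study's methods, cells that carried CD11b, CD11c, B220, Gr1, NK1.1, or CD8α were depleted with beads, and naive CD4+ T cells were then sorted, before activation. For the restimulated cells the paper cites an earlier study, and its methods do not describe their preparation separately. In the day 3 experiment living cells were sorted before RNA was made. The *Cd4*-Cre transgene acts in T cells from the stage at which they express CD4. The labels do not say how many animals stood behind each sample, and p-values measure the spread between these samples.

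Chemokines are small secreted proteins that bind receptors on other cells and guide their migration. CCL3, CCL4, and CCL5 are inflammatory chemokines that activated T cells secrete at high levels, CD8+ T cells in particular. XCL1 attracts dendritic cells that carry XCR1, CCL1 binds CCR8, and CCL9 binds CCR1. CXCL10 is made in response to interferons and binds CXCR3, the receptor of Th1 and cytotoxic T cells. CXCL16 is made as a membrane protein that proteases can shed, and it binds CXCR6.

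Values are FPKM, the fragments assigned to a gene relative to its length and to the size of the library. Estimated depth ranged from 23270000 to 54870000 fragments per library. *Hdac1*, the deleted gene, was at 76.3 to 79.6 FPKM in WT and 6.65 to 10.7 in HDAC1cKO-HDAC2HET samples on day 3, and at 72.3 to 81.1 in WT and 8.52 to 12.1 in HDAC1cKO samples after restimulation. *Hdac2* was at 58.2 to 60.3 FPKM in day 3 WT and 34.0 to 37.0 in HDAC1cKO-HDAC2HET samples. The 8 T cell markers summed to 1657 to 1774 FPKM in day 3 WT and 1447 to 1542 in HDAC1cKO-HDAC2HET samples. In the restimulated experiment they summed to 1402 to 1736.5 FPKM in WT and 1589 to 1755 in HDAC1cKO samples. The NK cell markers with values summed to at most 0.126 FPKM and the 4 neutrophil markers to at most 0.120, with *S100a8* and *S100a9* at 0 in all groups. WT replicate 1 of the restimulated experiment stood apart from the other 2 WT samples in *Cxcl10* and *Ccl5*, and the differences of these genes that involve it are given with and without it.

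The 250 bases before the start of transcription are shown for the 5 members with an entry in the RefSeq promoter table (GRCm38.p6). Whether the letters marked in them relate to the mRNA levels was not tested. All 5 lie on the minus strand and are printed 5′ to 3′. Capitals mark the letters searched on both strands: GAAANNGAAA, a pair of interferon-response repeats; GGGNNTTCC, a κB-like core; TGANTCA, an AP-1-like site; and TATAAA. Of 32817 such windows in the table, 2.97% held the first, 4.97% the second, 6.75% the third, and 12.4% the last.
Cxcl10, chr5:92348890-92349139: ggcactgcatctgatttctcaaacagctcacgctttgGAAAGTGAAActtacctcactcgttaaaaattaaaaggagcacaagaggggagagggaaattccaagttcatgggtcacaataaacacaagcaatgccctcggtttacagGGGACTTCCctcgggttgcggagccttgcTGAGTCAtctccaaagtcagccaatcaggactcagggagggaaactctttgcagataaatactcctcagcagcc
Ccl9, chr11:83578637-83578886: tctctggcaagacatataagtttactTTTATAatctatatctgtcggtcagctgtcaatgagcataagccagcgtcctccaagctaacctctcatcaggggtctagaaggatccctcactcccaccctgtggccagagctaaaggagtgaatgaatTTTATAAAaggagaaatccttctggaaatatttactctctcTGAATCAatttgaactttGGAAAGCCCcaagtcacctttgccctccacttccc
Ccl3, chr11:83649379-83649628: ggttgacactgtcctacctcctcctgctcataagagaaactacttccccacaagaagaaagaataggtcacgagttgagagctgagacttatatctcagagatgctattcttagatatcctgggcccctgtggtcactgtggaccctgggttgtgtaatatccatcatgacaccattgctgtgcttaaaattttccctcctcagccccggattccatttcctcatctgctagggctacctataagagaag
Ccl1, chr11:82179813-82180062: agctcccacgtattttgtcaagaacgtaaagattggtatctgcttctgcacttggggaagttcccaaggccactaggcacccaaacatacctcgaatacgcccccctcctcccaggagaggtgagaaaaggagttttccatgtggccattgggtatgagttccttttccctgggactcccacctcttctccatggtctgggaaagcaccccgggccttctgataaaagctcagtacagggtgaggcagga
Xcl1, chr1:164935523-164935772: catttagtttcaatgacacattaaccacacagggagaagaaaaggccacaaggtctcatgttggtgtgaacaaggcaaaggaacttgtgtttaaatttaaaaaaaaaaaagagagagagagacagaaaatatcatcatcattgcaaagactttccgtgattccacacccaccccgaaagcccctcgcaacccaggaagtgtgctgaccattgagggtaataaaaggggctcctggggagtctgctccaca
In the *Cxcl10* window the interferon-response pair began 213 bases before the start, the κB-like letters 103 bases before it, and the AP-1-like letters 74 bases before it. The window of *Ccl9* held TATAAA, or its reverse complement, at 3 positions, AP-1-like letters, and κB-like letters on the reverse strand. Those of *Ccl3*, *Ccl1*, and *Xcl1* held none of the 4 as written. Only these exact letters were searched. A longer spacing, as in gggaagttcc of the *Ccl1* window and gggaaattcc of the *Cxcl10* window, stayed in lower case. *Ccl4*, *Ccl5*, and *Cxcl16* were not analysed in this way.

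The genes lie mostly on chromosome 11 (GRCm38, which is mm10). *Ccl5* (chr11:83525778-83530518), *Ccl9* (chr11:83572919-83578636), and *Ccl3* (chr11:83647844-83649355) are on the minus strand, and *Ccl4* (chr11:83662584-83664683) follows on the plus strand. The gap between *Ccl5* and *Ccl9* is 42401 bases, that between *Ccl9* and *Ccl3* 69208, and that between *Ccl3* and *Ccl4* 13229. *Ccl1* (chr11:82176657-82305690) and *Cxcl16* (chr11:70453983-70459984) are farther away on the same chromosome. *Xcl1* (chr1:164931644-164935527) and *Cxcl10* (chr5:92346638-92348889) lie elsewhere. *Xcl1*, *Cxcl10*, and *Cxcl16* overlap the genes *Gm20743*, *Art3*, and *Zmynd15* on the opposite strand, with which they may share reads where strand was not used.

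**Figure D1:**
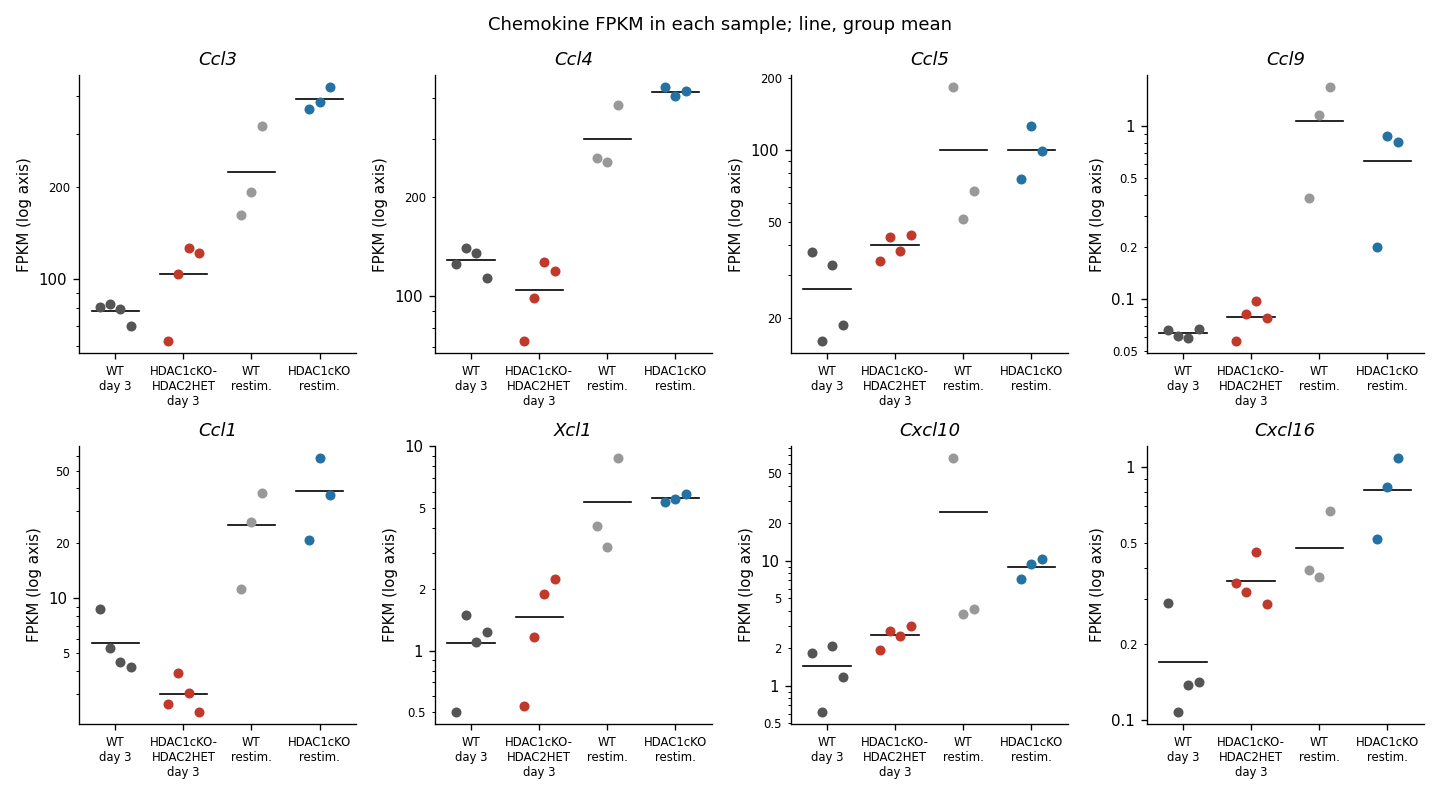
FPKM of each chemokine gene (log axis, own scale in each panel) in every sample of the 4 groups; points are samples and lines are group means. *Ccl3* and *Ccl4* range from 62.6 to 432 FPKM over all groups, the restimulated WT samples lie above the day 3 WT samples for all 8 genes, and the WT sample with 66.1 FPKM of *Cxcl10* stands apart from the other 2.

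*Ccl3*, *Ccl4*, and *Ccl5* were the most abundant members in every group. In day 3 WT samples *Ccl4* was at 128 ± 11.9 FPKM (SD, n = 4), *Ccl3* at 78.3 ± 5.68, *Ccl5* at 26.4 ± 10.6, *Ccl1* at 5.69 ± 2.11, *Cxcl10* at 1.43 ± 0.657, *Xcl1* at 1.09 ± 0.423, *Cxcl16* at 0.169 ± 0.0820, and *Ccl9* at 0.0631 ± 0.00379. In this order the sample ranges of neighbours overlapped for *Cxcl10* and *Xcl1*, and for no other pair of neighbours. In HDAC1cKO-HDAC2HET samples the order was the same, but *Ccl4* (104 ± 24.1 FPKM) and *Ccl3* (104 ± 29.2) overlapped, as did *Ccl1* (2.99 ± 0.655) with *Cxcl10* (2.55 ± 0.449) and *Cxcl10* with *Xcl1* (1.46 ± 0.764). After restimulation *Ccl4* and *Ccl3* again led, at 301 ± 70.9 and 224 ± 82.9 FPKM in WT (n = 3) and 420 ± 13.1 and 390 ± 32.7 in HDAC1cKO samples (n = 3), and their ranges overlapped in both groups. The lowest place was taken by *Cxcl16* in restimulated WT (0.478 ± 0.168 FPKM) and by *Ccl9* in HDAC1cKO samples (0.625 ± 0.370), and in both groups these genes overlapped each other.

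The first comparison asked how the loss of HDAC1 and of a single *Hdac2* allele changed the chemokine genes in cells activated for 3 days. None of the 7 members tested was called, that is, changed at least 2-fold at an adjusted p of at most 0.05 in limma. In the same fit 5.6% of 15107 genes were called higher and 5.59% lower. *Ccl1* and *Cxcl16* passed the adjusted p at less than 2-fold, *Ccl1* as the lower and *Cxcl16* as the higher in mutant samples, where 27.6% of all genes passed as lower and 24.2% as higher. The adjusted p of *Ccl1* rose above 0.05 in 4 of 17 other settings with a test, and that of *Cxcl16* in 5 of 16 (limma, adjusted p up to 0.859 and 0.402, both with *Xist* as a covariate). *Xist* levels did not overlap between the day 3 groups, so that covariate and genotype cannot be told apart. At an unadjusted p under 0.05 there were 4 of 7 members, against 56.5% of all genes. The median change of the 7 members was 0.36 on the log2 scale, and that of all genes -0.045.

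*Ccl1* was at 8.77, 5.33, 4.49, and 4.18 FPKM in WT and at 2.64, 3.89, 3.03, and 2.39 in HDAC1cKO-HDAC2HET samples. Every mutant sample lay below every WT sample, which was so for 1 of the 8 members and for 50.3% of all genes in either direction. The change was -0.87 ± 0.25 on the log2 scale (SE; limma, adjusted p = 0.0209), and the exact permutation test, 2-sided, gave p = 0.0286, the smallest that 70 arrangements of 4 against 4 allow. *Cxcl16* was at 0.290, 0.108, 0.137, and 0.142 FPKM in WT and at 0.349, 0.322, 0.463, and 0.289 in mutant samples. The highest WT sample, replicate 1, overlapped the lowest mutant sample by a narrow margin. The difference was 0.79 ± 0.23 on the log2 scale (limma, adjusted p = 0.0228), and in both day 3 groups these values rested on an apparent 11.1 to 37.2 fragments per library, a number estimated from the Cufflinks confidence bounds. The length behind the FPKM appeared shorter in WT replicate 1, at 1.63 kb, than in the other day 3 samples, at 2.23 to 2.36 kb. In apparent fragments per 1000000, *Cxcl16* was at 0.241 to 0.472 in WT and 0.676 to 1.09 in mutant samples, without overlap and with a ratio of means of 2.47, against 2.10 in FPKM. On that scale, which carries no test, the day 3 ratios of the other members were within 10% of those in FPKM, and *Ccl1* was the single other member without overlap.

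*Ccl3*, *Ccl4*, and *Ccl5* did not move as a block on day 3. *Ccl3* was at 80.9, 82.6, 79.8, and 69.95 FPKM in WT and at 62.6, 104, 127, and 122 in mutant samples, so that 3 mutant samples lay above all WT samples and replicate 1 lay below them. The difference was 0.36 ± 0.21 (log2, limma, adjusted p = 0.206). *Ccl4* was at 126, 140, 135, and 113 FPKM in WT and at 72.9, 98.7, 127, and 119 in mutant samples, with a difference of -0.33 ± 0.17 (limma, adjusted p = 0.153). The 95% interval ran from -0.14 to 0.86 for *Ccl3* and from -0.73 to 0.07 for *Ccl4*, both of which leave out a 2-fold change in either direction. *Ccl5* was at 37.6, 16.0, 33.2, and 18.7 FPKM in WT and at 34.6, 43.3, 38.1, and 44.3 in mutant samples. The WT samples spread more than 2-fold and the highest of them overlapped the mutant group, with a difference of 0.69 ± 0.28 (limma, adjusted p = 0.0745).

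*Cxcl10* was at 1.84, 0.621, 2.07, and 1.18 FPKM in WT and at 1.95, 2.75, 2.49, and 3.00 in mutant samples. Again 1 WT sample reached into the mutant range, and the difference was 0.90 ± 0.34 (log2, limma, adjusted p = 0.0613). Without WT replicate 3 it was 1.11 with an adjusted p of 0.032 in limma, which made it the single member called. *Xcl1* was at 0.504, 1.503, 1.10, and 1.24 FPKM in WT and at 0.534, 1.17, 1.89, and 2.25 in mutant samples, and the groups overlapped over most of their range (0.32 ± 0.47, limma, adjusted p = 0.607). *Ccl9* ranged from 0.0590 to 0.0668 FPKM in WT and from 0.0572 to 0.0973 in mutant samples. Its mean lay under the minimum of 0.1 FPKM, so it was not tested, and it rested on an apparent 6 to 13 fragments per library.

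These values stood beside large changes elsewhere in the same cells. *Ifng*, which encodes an interferon, was at 0.608 to 1.52 FPKM in WT and 67.7 to 100 in HDAC1cKO-HDAC2HET samples, a log2 difference of 6.31 (limma, adjusted p = 1.86e-06). The *Cxcl10* means differed 1.78-fold between the same groups. *Tbx21* (26.7 to 91.3 FPKM), *Eomes* (2.84 to 36.8), and *Runx3* (15.5 to 48.0), transcription factors of the Th1 and cytotoxic programs, were called as higher. *Tnf* was at 41.8 and 42.4 FPKM in the mean. Markers of CD8+ T cells, *Cd8a* and *Cd8b1*, summed to 3.28 to 5.96 FPKM in WT and 11.7 to 15.2 in mutant samples. The paper reports that *Cd8a* was upregulated but very low in these samples, so most of each sum was *Cd8b1*. It found CD8α protein to be undetected or low. Of 6 B cell markers, the 5 with values summed to 0.520 to 0.960 and 2.83 to 4.47 FPKM, mostly through *Cd79b*. Cells with CD8α or B220 on their surface had been depleted before the naive CD4+ T cells were sorted. The part of these markers in the chemokine values was not tested, and in bulk RNA more cells of a type and more RNA per cell cannot be told apart.

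**Figure D2:**
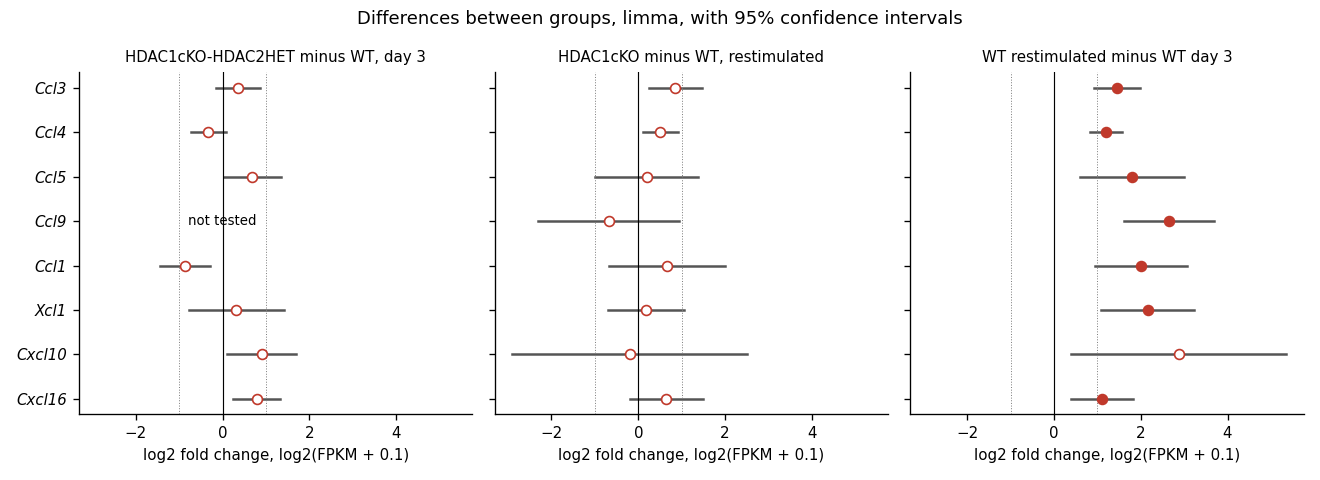
Difference of each chemokine gene on the log2(FPKM + 0.1) scale in the 3 comparisons of 2 groups, with 95% confidence intervals; filled points were called, dotted lines mark a 2-fold change. No gene was called in either mutant, and by FPKM 7 of 8 were called as higher in restimulated than in day 3 WT samples. The apparent length behind FPKM differed between the experiments for *Ccl5*, *Ccl9*, and *Cxcl16*.

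The second comparison asked the same of HDAC1cKO cells, which keep both *Hdac2* alleles, after restimulation. None of the 8 members was called by limma, where 0.0143% of 14001 genes were called higher and 0.0643% lower. Of the members, 2 had an unadjusted p under 0.05, *Ccl3* and *Ccl4*, against 14.2% of all genes. *Xist*, which is expressed in female cells, was at 42.9 and 33.2 FPKM in WT replicates 1 and 3 and at most 0.0435 in the other 4 samples, so the sex of the mice was not balanced between these groups. Day 3 samples had *Xist* in both groups, at 58.9 to 65.2 FPKM in WT and 26.0 to 33.7 in mutant samples.

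*Ccl3* was at 162, 193, and 318 FPKM in WT and at 363, 381, and 426 in HDAC1cKO samples. *Ccl4* was at 263, 256, and 382 FPKM in WT and at 432, 406, and 422 in HDAC1cKO samples. For both genes every HDAC1cKO sample lay above every WT sample. This was so for these 2 of 8 members and, in either direction, for 22.3% of all genes. The differences were 0.86 ± 0.25 for *Ccl3* (limma, adjusted p = 0.248) and 0.51 ± 0.17 for *Ccl4* (limma, adjusted p = 0.284). The exact permutation test gave p = 0.1 for each, the smallest that 20 arrangements of 3 against 3 allow.

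*Cxcl10* was at 66.1, 3.77, and 4.14 FPKM in WT and at 7.09, 9.49, and 10.3 in HDAC1cKO samples. The mean difference was -0.20 ± 1.10 (log2, limma, adjusted p = 0.955), with WT replicate 1 far above and the other WT samples below all HDAC1cKO samples. Without WT replicate 1 the direction turned, to 1.14. *Ccl5* had the same shape, with 181.9, 51.8, and 67.1 FPKM in WT against 75.5, 125, and 99.2 in HDAC1cKO samples (0.19 ± 0.48, limma, adjusted p = 0.889). Without WT replicate 1 the *Ccl5* difference was 0.73 (limma, adjusted p = 0.232). The apparent length of *Ccl5* was 0.158 kb in that sample and 0.223 and 0.222 kb in the other WT samples. In apparent fragments per 1000000, *Ccl5* was at 28.7, 11.5, and 14.9 in WT and 16.7, 22.5, and 18.2 in HDAC1cKO samples. Without WT replicate 1 the ratio of means was 1.45 on that scale, against 1.68 in FPKM. *Ccl1* (11.2, 26.2, and 37.7 FPKM against 20.8, 58.4, and 36.8) and *Xcl1* (4.09, 3.23, and 8.73 against 5.34, 5.53, and 5.83) overlapped between the groups. So did *Cxcl16* (0.393, 0.369, and 0.671 against 0.523, 0.833, and 1.09) and *Ccl9* (0.381, 1.16, and 1.67 against 0.1998, 0.871, and 0.805). Their differences ran from -0.68 for *Ccl9* to 0.67 for *Ccl1* on the log2 scale. In apparent fragments per 1000000, *Ccl9* was at 0.176 to 0.309 in WT and 0.0476 to 0.152 in HDAC1cKO samples, without overlap, a scale that carries no test. The 95% interval of *Cxcl10* covers changes of more than 4-fold in both directions.

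In HDAC1cKO samples the restimulated *Ifng* values were 50.8, 42.5, and 95.3 FPKM against 1.06, 0.457, and 4.01 in WT, a log2 difference of 5.42 (limma, adjusted p = 0.114). *Mpeg1*, which is a macrophage marker, was at 12.6 to 14.9 FPKM in HDAC1cKO and 0.501 to 6.19 in WT samples, while *Lyz2* was at 0 in all 6. Of 9 markers of monocytes, macrophages, and dendritic cells, 7 had values. They summed to 16.9 to 20.6 FPKM in HDAC1cKO and 5.42 to 11.7 in WT samples. Most of the HDAC1cKO sum was *Mpeg1*, and the median log2 change of the 3 markers tested was -0.17. The part of these markers in the *Ccl3* and *Ccl4* values was not tested. The paper's methods describe depletion of cells with CD11b or CD11c before the sort of naive CD4+ T cells. For the restimulated cells the paper cites an earlier study.

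When the change in HDAC1cKO-HDAC2HET was compared with that in HDAC1cKO cells in a model of all 14 samples, *Ccl4* was the single member whose changes differed, by -0.83 ± 0.26 on the log2 scale (limma, adjusted p = 0.0485). It was lower than WT in the first and higher in the second. In this test 7.71% of 13438 genes passed as higher and 6.9% as lower, and the call for *Ccl4* was lost under 16 of 22 alternatives, with adjusted p-values from 0.0166 to 0.1. For *Ccl1* the difference was -1.53 ± 0.60 (limma, adjusted p = 0.114). Genotype, restimulation, and experiment cannot be told apart here.

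**Figure D3:**
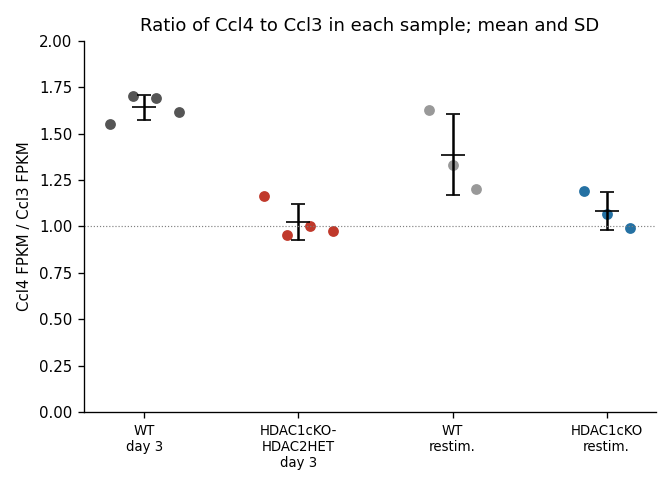
Ratio of *Ccl4* FPKM to *Ccl3* FPKM in each sample of the 4 groups, with the mean and SD; the dotted line marks equal FPKM. Day 3 WT samples lie between 1.55 and 1.70 and all HDAC1cKO-HDAC2HET samples between 0.952 and 1.16.

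On day 3, *Ccl3* and *Ccl4*, neighbours on chromosome 11, did not keep the same proportion in mutant and WT samples. This ratio was chosen after the values had been seen, so its p-values describe the separation and are not independent support. Ratios of other gene pairs were not examined. Of single genes, 50.3% had no overlap between the day 3 groups. Within a sample it does not depend on library size. On day 3 the ratio of *Ccl4* to *Ccl3* was 1.55, 1.70, 1.69, and 1.62 in WT and 1.16, 0.952, 1.00, and 0.977 in HDAC1cKO-HDAC2HET samples. The groups did not overlap, with means of 1.64 ± 0.0693 and 1.02 ± 0.0963 (SD, n = 4 each; exact permutation test, 2-sided, p = 0.0286, the smallest possible). After restimulation it was 1.63, 1.33, and 1.20 in WT and 1.19, 1.07, and 0.990 in HDAC1cKO samples, means of 1.39 ± 0.219 and 1.08 ± 0.101 (n = 3 each; exact permutation test, p = 0.1, the smallest possible). Here the closest samples, at 1.20 and 1.19, almost met. Across all 14 samples *Ccl3* and *Ccl4* correlated at r = 0.95, within the day 3 samples at 0.38 and within the restimulated samples at 0.97. *Ccl4* was listed under its name in 4 samples and matched by position in 10. The fourth HDAC1cKO-HDAC2HET sample, matched by position as all WT samples of that day were, had a ratio of 0.977.

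The third comparison asked how the members differed between restimulated and day 3 WT cells. By FPKM, 7 of 8 were called as higher after restimulation, and none as lower, while 7.33% of 13270 genes were called higher and 3.62% lower. All 8 had no overlap between the groups, against 43.4% of all genes in either direction. The median of the members was 1.90 on the log2 scale and that of all genes 0.11. The groups come from separate experiments, so culture, sex, and batch cannot be told apart, and the exact permutation test could not go below p = 0.0571 with 4 against 3 samples.

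*Ccl3* and *Ccl4* rose 2.86-fold and 2.34-fold in the mean (log2 changes 1.46 ± 0.22 and 1.21 ± 0.15; limma, adjusted p = 0.00319 and 0.0016). *Ccl1* rose 4.40-fold (2.01 ± 0.45; limma, adjusted p = 0.0147) and *Xcl1* 4.93-fold (2.16 ± 0.45; limma, adjusted p = 0.0115). *Ccl5* rose 3.80-fold (1.79 ± 0.50; limma, adjusted p = 0.0343) and *Cxcl16* 2.82-fold (1.11 ± 0.30; limma, adjusted p = 0.0313). Both of these calls were lost without some single samples. *Ccl5* missed the threshold without day 3 WT replicate 2, 3, or 4 or restimulated WT replicate 1 or 3, with changes of 1.25 to 1.97 (limma, adjusted p = 0.0524 to 0.0853). *Cxcl16* missed it without day 3 WT replicate 2, 3, or 4 or restimulated WT replicate 3, with changes of 0.88 to 1.07 (limma, adjusted p = 0.0764 to 0.0856). *Cxcl10* had the largest ratio of means, 17.3-fold, through WT replicate 1, and was not called (2.87 ± 1.04; limma, adjusted p = 0.0753). Without that sample its change was 1.53, and it then passed (limma, adjusted p = 0.0466).

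*Ccl9* was called as 17.0-fold higher in FPKM (limma, 2.65 ± 0.43 on the log2 scale, adjusted p = 0.00456), but the apparent fragments behind it overlapped between the groups. The confidence bounds that Cufflinks gives beside each FPKM allow the number of fragments and the length used for the gene to be estimated. For *Ccl9* the apparent fragments per 1000000 were 0.168 to 0.198 in day 3 WT and 0.176 to 0.309 in restimulated WT samples, ranges that overlap, with a ratio of means of 1.30. Without restimulated WT replicate 1 they did not overlap, and the ratio was 1.45. The apparent length was 2.69 to 3.09 kb in day 3 samples and 0.175 to 0.462 kb in restimulated samples. The FPKM rise of *Ccl9* thus went with a much shorter apparent length. In restimulated samples its apparent fragments, 1.66 to 8.31 per library, were not whole numbers, so they are estimates and not read counts. How much of the FPKM change lay in length was not tested.

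**Figure D4:**
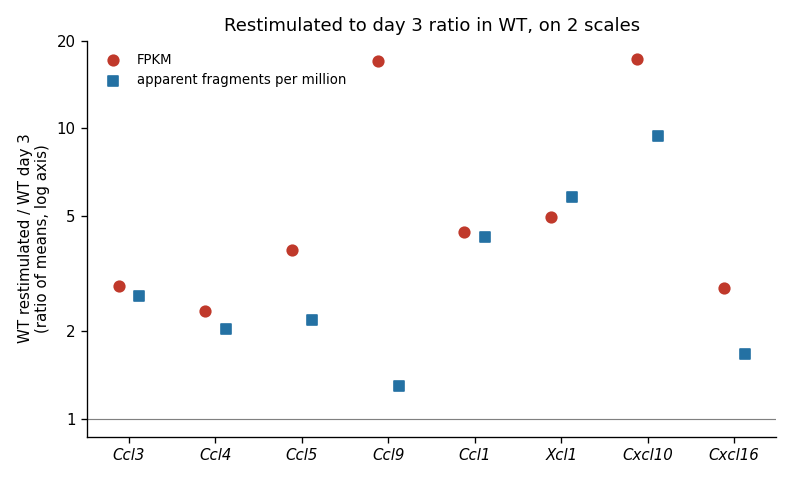
Ratio of the restimulated to the day 3 WT mean (log axis) for each chemokine gene, by FPKM (circles) and by apparent fragments per 1000000 (squares). The scales are close for *Ccl3*, *Ccl4*, *Ccl1*, and *Xcl1*, and far apart for *Ccl9*, at 17.0 and 1.30.

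On the same scale of apparent fragments per 1000000, the ratio of restimulated to day 3 WT means was 2.64 for *Ccl3*, 2.03 for *Ccl4*, 4.22 for *Ccl1*, and 5.77 for *Xcl1*, without overlap of the groups. It was 9.42 for *Cxcl10* through restimulated WT replicate 1, which had 29.5 against 2.03 and 2.02 in the other 2 samples. Without that sample the *Cxcl10* ratio was 1.71, and with or without it the groups did not overlap. The ratio was 2.18 for *Ccl5* (1.56 without that sample) and 1.67 for *Cxcl16*, for which the groups overlapped. The apparent length of *Ccl5* was 0.314 to 0.330 kb in day 3 and 0.158 to 0.223 kb in restimulated samples, and that of *Cxcl16* 1.63 to 2.36 kb and 1.11 to 1.26 kb. *Ccl1* was listed with a longer span in the restimulated than in the day 3 files, but its apparent length was alike, at 0.213 to 0.253 kb and 0.248 to 0.268 kb. Reads shared between isoforms lower these estimates, which carry no test.

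Each member was set beside the protein-coding genes whose log2 values followed it most closely over the 14 samples, among 8985 genes. These correlations describe samples that share experiment and library, and are given without a test. *Cxcl10* was closest to *Oas1a* (r = 0.97), *Usp18* (r = 0.96), and *Ccrl2* (r = 0.96), and *Ccl5* to *Ttc39c* (r = 0.98), *Oasl1* (r = 0.97), and *Usp18* (r = 0.97). *Oas1a*, *Oasl1*, and *Usp18* are interferon-induced genes. *Cxcl10* and *Ccl5* themselves correlated at 0.96 over all samples, 0.96 within the day 3 samples, and 0.92 within the restimulated samples. With *Usp18*, *Cxcl10* stood at 0.95 within the day 3 and 0.93 within the restimulated samples.

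**Figure D5:**
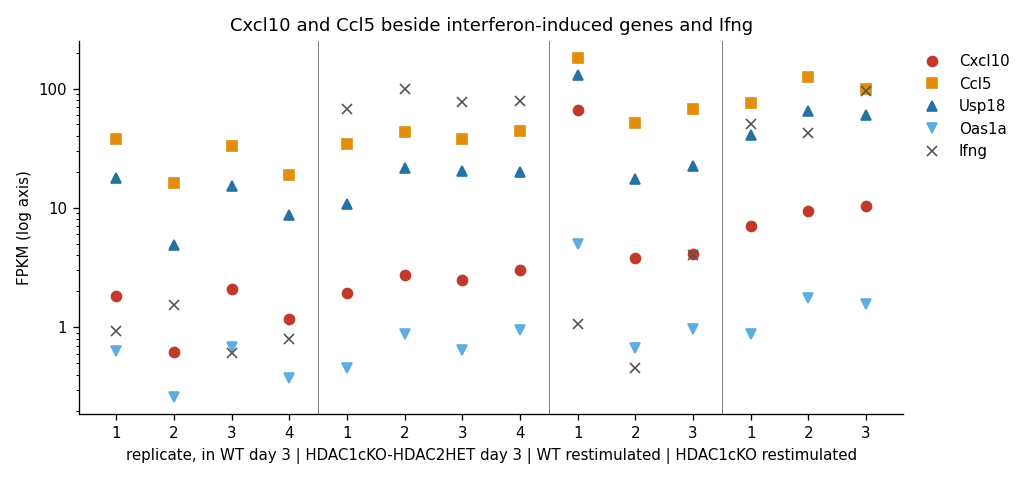
FPKM (log axis) of *Cxcl10*, *Ccl5*, the interferon-induced genes *Usp18* and *Oas1a*, and *Ifng* in each of the 14 samples, with vertical lines between the groups. *Cxcl10*, *Ccl5*, *Usp18*, and *Oas1a* are highest in WT replicate 1 of the restimulated experiment, where *Ifng* is at 1.06 FPKM.

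In WT replicate 1 of the restimulated experiment, *Usp18* was at 129 FPKM, against 17.4 and 22.5 in the other WT and 40.8 to 64.8 in the HDAC1cKO samples. *Oas1a* was at 4.97 FPKM there, against 0.664 and 0.956, and *Oasl1* at 20.7, against 3.19 and 3.40. *Ifng*, at 1.06 FPKM, was not raised in that sample. On day 3, WT replicate 2 had the lowest *Cxcl10* (0.621 FPKM), *Ccl5* (16.0), *Usp18* (4.85), and *Oas1a* (0.258) of all samples, and its *Ifng* was the highest of the 4 WT samples, at 1.52 FPKM. *Usp18* was at 10.7 to 21.8 FPKM in HDAC1cKO-HDAC2HET and 4.85 to 17.8 in WT samples, ranges that overlap, as those of *Cxcl10* did.

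The other members had other neighbours. *Ccl4* was closest to *Rgs1* (r = 0.98) and *Rgs16* (r = 0.97), regulators of G protein signaling that dampen chemokine receptors, and then to *Mpzl3* (r = 0.97). *Rgs1* was at 75.6 to 84.7 FPKM in day 3 WT, 44.2 to 59.7 in HDAC1cKO-HDAC2HET, 160 to 323 in restimulated WT, and 338 to 366 in HDAC1cKO samples. *Ccl3* was closest to *Mrps34*, *Tm9sf4*, and *Bak1* (r of 0.96 to 0.97) and *Ccl1* to *Trmt1l*, *Pdia5*, and *Ighmbp2* (0.96 to 0.98). *Xcl1* was closest to *Cycs*, *Gtse1*, and *Cnot8* (0.92 to 0.93), but within the restimulated samples the r was 0.35 with *Gtse1* and 0.47 with *Cnot8*, and within the day 3 samples 0.58 with *Cycs*. The r of *Ccl3* with *Tm9sf4* was 0.54 within the day 3 samples, and that of *Ccl4* with *Mpzl3* 0.57. *Cxcl16* was closest to *Il21r*, *Pithd1*, and *Cptp* (r of 0.95). *Ccl9* followed *Rps27l*, *Tarsl2*, and *Poldip2* (0.97 to 0.98), but within the day 3 samples its r with *Rps27l* was 0.24.

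Among 32 other chemokine ligand genes, 28 had a value in every day 3 sample, 13 of which were listed at 0 in all 8, and 3 reached the minimum for a test. Of these 3, *Cxcl13*, a ligand of CXCR5 that attracts B cells, was called as higher in HDAC1cKO-HDAC2HET samples, from 0.351 to 3.00 FPKM in the mean (2.76, limma, adjusted p = 0.000149). *Ccl20*, the ligand of CCR6, was called as lower, from 1.12 to 0.150 FPKM (-2.19, limma, adjusted p = 0.00213). In the HDAC1cKO comparison 8 were tested and none was called by limma, 1 of them, *Cxcl13*, having an unadjusted p under 0.05, with *Cxcl13* at 2.49 and 22.2 FPKM in the mean (limma, adjusted p = 0.227). Between the WT groups 7 were tested and 3 were called as higher after restimulation, where 7.33% of all genes were: *Ccl22* from 0.165 to 1.63 FPKM, *Cxcl2* from 0.0455 to 0.556, and *Cx3cl1* from 0.0379 to 0.461. The medians of the tested genes were 0.61, 0.16, and 1.67 on the log2 scale in these 3 comparisons.

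Of the receptors that bind the members, *Cxcr6*, the receptor of CXCL16, was called as lower in HDAC1cKO-HDAC2HET samples, from 0.393 to 0.0466 FPKM in the mean (-1.74, limma, adjusted p = 0.000205). It was the single receptor of a member called in that comparison, in which 3 of 6 were tested. *Ccr8*, the receptor of CCL1, was at 8.41 FPKM in WT and 12.03 in mutant samples (0.52, limma, adjusted p = 0.0412), less than 2-fold higher. *Cxcr3* (0.294 and 0.367 FPKM) did not pass the adjusted p in limma, and *Ccr1*, *Ccr3*, and *Xcr1* were at no more than 0.0341 in the group means. In HDAC1cKO samples 2 receptors of members were tested and none was called by limma, though *Cxcr6* had an unadjusted p under 0.05, with *Cxcr6* at 0.992 FPKM in WT and 0.395 in HDAC1cKO samples (limma, adjusted p = 0.308). Between the WT groups, both of the 2 tested were called as higher after restimulation, as 7.33% of all genes were, *Cxcr3* from 0.294 to 0.834 FPKM and *Cxcr6* from 0.393 to 0.992.

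Of 16 other chemokine receptors, 6 were tested on day 3. *Ccr4* was called as lower in HDAC1cKO-HDAC2HET samples, from 37.2 to 15.1 FPKM in the mean (-1.29, limma, adjusted p = 0.000593). *Ccr7*, which guides T cells to lymph nodes and was the most abundant receptor, was at 341 and 553 FPKM (0.71, limma, adjusted p = 0.000476), under 2-fold. None was called by limma in HDAC1cKO samples, where *Ccr4* and *Ccr6* had an unadjusted p under 0.05. Between the WT groups *Ccr6* rose from 7.54 to 47.3 FPKM and *Ccr7* from 341 to 798.

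Of 19 genes that handle chemokines or are known to control them, all 19 were tested on day 3, with 5 called as higher and 2 as lower in HDAC1cKO-HDAC2HET samples, against 5.6% and 5.59% of all genes. *Zfp36*, which binds chemokine and cytokine mRNAs and promotes their decay, was lower, at 25.3 FPKM in WT and 9.49 in mutant samples in the mean (-1.41, limma, adjusted p = 4.44e-06). *Dpp4*, a peptidase that trims CXCL10 and other chemokines, was also lower, at 14.8 and 6.80 FPKM (-1.08, limma, adjusted p = 0.00089). *Adam10*, a protease that sheds CXCL16, was at 69.7 and 34.8 FPKM (-0.998, limma, adjusted p = 2.63e-06) and just missed the 2-fold bound. The 5 genes called as higher were *Ifng*, *Eomes*, *Tbx21*, *Runx3*, and *Jun*. All of these but *Jun* had been reported by the paper as upregulated in the same samples. The list was chosen with earlier results known, so its count of calls is not independent of them. *Klf13*, a factor for which control of *Ccl5* has been described, was at 20.03 and 18.4 FPKM (-0.13, limma, adjusted p = 0.0837). None of the 19 tested in the HDAC1cKO comparison was called by limma, while 9 had an unadjusted p under 0.05, as 14.2% of all genes did, and between the WT groups *Eomes* and *Jun* were called as higher after restimulation. The medians of this list were -0.13, 0.04, and 0.02 on the log2 scale in the 3 comparisons, and -0.045, -0.029, and 0.11 for all genes.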

How the data were processed

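RNA-Seq of 14 samples was analysed from the deposited FPKM values and their confidence bounds. Per the paper's methods, the authors mapped 50-bp reads of stranded libraries to mm10 with TopHat 2.0.13 and computed FPKM per library with Cufflinks 2.2.1. These methods give no separate account of the restimulated samples, for which the paper cites an earlier study. The submitters' processing notes list STAR 2.5.2b, Subread 1.5.1, FastQC, R 3.4, and edgeR instead. A member was read by its listed name (90 of 112 values) or from the unnamed locus sharing at least 0.8 of the joint span with the gene in GENCODE M21 (22 values). Where the locus differs between the experiments, so does the length behind FPKM.

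Groups and replicates came from the labels. limma 3.58.1 in R 4.3.3 was fitted across all genes with a mean of at least 0.1 FPKM, on log2(FPKM + 0.1), with an intensity trend and Benjamini-Hochberg adjustment. This scale understates changes of low genes. Exact permutation tests were 2-sided. On simulated data with 200 changed genes, 191 were recovered in the day 3 fit and 185 in the restimulated fit. Between the WT groups 182 were recovered, and in the test of the difference 183. Unchanged genes called by mistake numbered 2, 8, 7, and 10 in the same order. Recovery of the members at their own levels and sizes of change was not tested. Depth, and the apparent fragments, were estimated from the Cufflinks bounds and cover counting error only. In each sample 79.0% to 84.7% of the low genes used for depth gave whole fragment numbers within 0.05. Members and lists were chosen with earlier results of these data known. Named beyond the members were lists of chemokine ligands, receptors, handling genes (some of their genes are not reported here), and markers, and the 3 genes closest to each member by Pearson's r with a mean of at least 1 FPKM. Alternatives changed the pseudocount, filter, scaling, trend, locus matching, *Xist* covariate, replicate block, samples in the fit, and each sample in turn. The use of apparent fragments was decided later, with the data in view.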

Additional observations from a re-analysis of the deposited data

Results flagged for a closer look

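*Ccl4* was noted because its change against WT differed between the experiments, by -0.83 on the log2 scale (limma, 14 samples, adjusted p = 0.0485). It was lower than WT in 2 of 4 HDAC1cKO-HDAC2HET samples compared with the whole WT range, and higher in 3 of 3 HDAC1cKO samples. The call was lost under 16 of the 22 alternatives run. No sample stood apart from the rest of its group by Dixon's criterion among the 16 groups of 4 examined, and groups of 3, such as the restimulated WT samples, were not examined.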

How the results depend on the processing

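No member was called in HDAC1cKO cells under any of 16 alternatives, nor in HDAC1cKO-HDAC2HET cells under 17 of 18. The exception was 1 call, *Cxcl10*, without WT replicate 3 (range 0 to 1 when each sample was left out). Between the WT groups 5 to 8 of the 6 or 8 members tested were called, apart from 1 of 2 when genes were used by listed name alone, and 5 to 7 when each sample was left out. There *Ccl1* lost its call with *Xist* as a covariate (limma, adjusted p = 0.0634), *Cxcl16* with pseudocount 1 (0.33 on the log2 scale), and *Ccl9* moved to 0.34 by apparent fragments. By the same measure the day 3 change of *Cxcl16* moved from 0.79 to 1.32. The single call in the difference between the experiments became 0 with pseudocount 1, no filter, no intensity trend, names alone, the *Xist* covariate, and the replicate block, and 0 to 1 when each sample was left out.

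Directions turned as follows, in log2 units. With the *Xist* covariate, day 3 changes became -0.82 for *Ccl3* and -2.78 for *Xcl1*, and the HDAC1cKO change of *Cxcl10* became 1.29, and by apparent fragments 0.17. *Xist* differed between the groups on day 3, so this covariate and genotype cannot be told apart there. When each sample was left out, HDAC1cKO changes ran from -0.91 to 1.14 for *Cxcl10*, -0.10 to 0.60 for *Xcl1*, and -0.17 to 0.73 for *Ccl5*. The differences between the experiments ran from -0.11 to 0.35 for *Cxcl16*, -0.28 to 0.51 for *Xcl1*, -0.25 to 1.80 for *Cxcl10*, and -0.045 to 0.86 for *Ccl5*. They became -0.075 for *Cxcl16* with pseudocount 1, and with the *Xist* covariate -0.084 for *Cxcl16*, -0.28 for *Xcl1*, -0.092 for *Cxcl10*, and -0.10 for *Ccl5*. The cause was not tested.

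Replicate numbers did not pair the samples, since deviations of same-numbered samples correlated at -0.0071 to 0.062 on day 3 and -0.016 to 0.013 after restimulation. With the replicate block 0 members were called in either mutant, as without it. Counts over all genes moved by more than 1.5 times in several settings: the 846 genes called higher on day 3 became 11, and the 844 called lower became 6, with the *Xist* covariate, and the 2 and 9 of the HDAC1cKO comparison became 145 and 146 when all 14 samples were fitted together. With genes used by listed name alone, the 973 called higher and 480 lower between the WT groups became 143 and 154, and the 1036 and 927 that passed in the difference between the experiments became 51 and 25. Depth limited *Ccl9*, *Cxcl16*, and *Xcl1* most, whose Cufflinks bounds lay up to 155%, 60.1%, and 76.3% above the value.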

Other observations

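*Cxcl10* and *Ifng* were set side by side in single samples. The restimulated WT sample with 66.1 FPKM of *Cxcl10* had 1.06 FPKM of *Ifng*. In the other 2 restimulated WT samples *Cxcl10* was at 3.77 and 4.14 FPKM and *Ifng* at 0.457 and 4.01, all below the HDAC1cKO samples, which had 7.09 to 10.3 FPKM of *Cxcl10* and 42.5 to 95.3 of *Ifng*. With all 3 WT samples the restimulated mean of *Cxcl10* was higher in WT, at 24.7 FPKM against 8.96 in HDAC1cKO samples. On day 3 the means of *Cxcl10* and *Ifng* were both higher in the mutant. Among the day 3 WT samples, replicate 2 had the lowest *Cxcl10*, at 0.621 FPKM, and the highest *Ifng*, at 1.52. A link between the 2 genes was not tested. *Il21r* followed *Cxcl16* at r = 0.95 over the 14 samples, 0.91 within the day 3 samples, and 0.88 within the restimulated samples.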
